A study of Mus musculus with 15 samples.

Results

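The genes described here are 10 transcripts that mark macrophages, measured in intestinal tissue of mice given proanthocyanidins (PAC), which are polymers of flavan-3-ol units from grape. The genes were listed by symbol as Cd68, Csf1r, Adgre1, C1qa, C1qb, C1qc, Cx3cr1, Mrc1, Cd163 and Lyz2. All 10 were present in the files of all 15 mice, among 17752 genes listed in any mouse. The mice were females of the strain C57BL/6 in the labels and C57BL/6JOlaHsd in the methods, given in the labels as 8 weeks old, and formed 3 groups of 5. The water group was gavaged with water alone. The low PAC group received low molecular weight PAC, and the high PAC group received high molecular weight PAC, both at 200 mg/kg and, as for water, every 2 days over 10 days. The methods of the study describe both as Sephadex fractions of grape pomace and give their mean degree of polymerization (mDP) as low and medium, so the names used here follow the labels. All mice ate the same purified diet, none was infected or challenged, and the tissue was a piece of ileum of each mouse, sequenced as 1 library. The comparisons asked whether the level of these macrophage transcripts in whole tissue differed between mice given water and mice given either fraction.

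Macrophages of the intestinal wall are replenished in large part by blood monocytes and depend on signals through the receptor encoded by Csf1r. They lie beneath the epithelium, where they take up bacteria and dying cells, and in the muscle layer beside nerves and blood vessels, and the populations of these layers differ in the receptors they carry. Macrophages are also the main source of C1q, the recognition molecule of the classical complement pathway, which is built from chains encoded by C1qa, C1qb and C1qc. In bulk tissue, fewer macrophages and less RNA of a gene per macrophage cannot be told apart.

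The libraries were of similar depth, with 15963086 to 17903886 expected counts per mouse, which are the estimated read pairs assigned to genes. Several libraries stood apart in what they contained. The summed level of 8 B cell genes (among them Ms4a1, Cd79a and Cd79b), in FPKM (fragments scaled by gene length and library size), was 72.8 or more in 7 mice (3 water, 2 low PAC and 2 high PAC) and 9.43 or less in the other 8, with no mouse between and none of the 8 genes at 0 in all mice of a group. The summed FPKM of 8 smooth muscle genes was 311.6 in water mouse 1 and 270.4 in water mouse 3 but 569.8 to 1103 in the other 13 mice. High PAC mouse 3 had the highest sum of FPKM over all genes, 677075 against 502110 to 573980 in the other 14. Of the markers of the labelled tissue, the ileal genes Fabp6, Slc10a2, Slc51a, Slc51b and Fgf15 had summed FPKM of 5099 to 11780 and were detected in every group.

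For 9 of the 10 genes, the expected counts were whole numbers in all 15 mice. Lyz2, which encodes the lysozyme of macrophages and other myeloid cells, had a fractional expected count in 15 of 15 mice, as did Lyz1, the lysozyme gene of Paneth cells. Both genes lie on chromosome 10, 5.5 kb apart (Lyz2 at chr10:117277331-117282321 and Lyz1 at chr10:117287797-117292868, GRCm38, minus strand), and their coding sequences are identical at 95.1% of 447 bases. Of all stretches of 100 bases in the Lyz2 transcript, the read length used, 1.97% also occur in Lyz1, and of all stretches of 50 bases, 15.4%. Lyz1 was at 3166 to 7772 FPKM and Lyz2 at only 0.698% to 2.56% of it, so the assignment of reads to Lyz2 is uncertain. Group means subtracted, the log2 levels of Lyz1 and Lyz2 had a Pearson r of 0.039 over 15 mice (permutation p = 0.899, Spearman's rho = 0.11, permutation p = 0.704).

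The C1q genes form a cluster on chromosome 4 of 18.7 kb on the minus strand of GRCm38, with C1qb at chr4:136880129-136886187, C1qc at chr4:136889804-136893065 and C1qa at chr4:136895917-136898803. The gaps between them are 3.6 kb and 2.9 kb, so no exons overlap.

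The sequences before the starts of 5 of these genes are shown because C1qb with C1qc (r = 0.925 over 15 mice, group means subtracted), Cd68 with C1qc (r = 0.767) and Mrc1 with Cd163 (r = 0.749) had the highest r among the pairs of members with an entry for both genes. They are the 250 bases before the start that RefSeq gives, read 5′ to 3′ on the strand of the gene from GRCm38.p6, at chr4:136886201-136886450 (minus), chr4:136892915-136893164 (minus), chr2:14229164-14229413 (plus), chr6:124304401-124304650 (plus) and chr11:69666171-69666420 (minus), for C1qb, C1qc, Mrc1, Cd163 and Cd68 in that order. The starts of RefSeq and of the gene bounds given here differ, so that the window of C1qc reaches 151 bases and that of Mrc1 22 bases into those bounds. Capitals mark GAGGAA or its reverse complement TTCCTC, the core recognised by PU.1, the transcription factor of the myeloid lineage that is encoded by Spi1.
C1qb: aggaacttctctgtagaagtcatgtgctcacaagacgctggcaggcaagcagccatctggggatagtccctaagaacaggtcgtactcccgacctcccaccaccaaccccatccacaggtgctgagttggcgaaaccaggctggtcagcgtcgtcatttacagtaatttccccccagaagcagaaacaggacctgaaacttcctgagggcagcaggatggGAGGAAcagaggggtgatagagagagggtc
C1qc: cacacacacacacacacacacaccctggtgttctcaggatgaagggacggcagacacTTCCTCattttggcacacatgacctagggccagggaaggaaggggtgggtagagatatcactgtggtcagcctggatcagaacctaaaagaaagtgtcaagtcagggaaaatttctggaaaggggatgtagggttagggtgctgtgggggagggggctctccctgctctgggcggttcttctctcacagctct
Mrc1: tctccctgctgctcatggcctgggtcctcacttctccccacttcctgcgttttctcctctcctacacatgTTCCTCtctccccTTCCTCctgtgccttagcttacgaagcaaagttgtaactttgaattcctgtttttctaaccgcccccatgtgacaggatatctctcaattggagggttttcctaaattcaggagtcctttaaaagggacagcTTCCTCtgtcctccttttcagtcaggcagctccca
Cd163: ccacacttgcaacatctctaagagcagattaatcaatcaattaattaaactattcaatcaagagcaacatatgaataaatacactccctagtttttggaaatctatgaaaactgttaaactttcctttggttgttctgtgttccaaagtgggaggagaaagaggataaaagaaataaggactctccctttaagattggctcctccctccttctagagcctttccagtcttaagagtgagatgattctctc
Cd68: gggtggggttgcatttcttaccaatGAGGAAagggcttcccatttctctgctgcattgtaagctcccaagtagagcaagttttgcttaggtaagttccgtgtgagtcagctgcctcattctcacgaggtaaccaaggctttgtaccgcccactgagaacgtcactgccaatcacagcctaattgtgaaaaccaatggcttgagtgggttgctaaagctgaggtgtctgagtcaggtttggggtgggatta

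Counted from the RefSeq start, the PU.1 core was found 30 bases before that of C1qb, 193 before that of C1qc, 180, 167 and 35 before that of Mrc1, 225 before that of Cd68, and it was not in the window of Cd163. Of the 7 members with an entry in the table of promoters (Cd68, C1qb, C1qc, Cx3cr1, Mrc1, Cd163 and Lyz2), 4 held the core on either strand. The same letters occurred in 23.3% of all 32851 windows of this length. The core recognised by MAF factors, TGCTGA or TCAGCA, was in 2 of the 7 (C1qb and Lyz2) and in 16.1% of all windows. A TATA box written as TATAAA or TTTATA was in 0 of the 7 and 12.4% of all windows, and the E-box CACGTG in 0 of the 7 and 6.02%.

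The other members are spread over the genome, with Mrc1 on chromosome 2 (chr2:14229392-14332057), Cd163 on chromosome 6 (chr6:124304656-124330527), Cx3cr1 on chromosome 9 (chr9:119901616-120069879), Cd68 on chromosome 11 (chr11:69664213-69666153), Adgre1 on chromosome 17 (chr17:57358691-57483527) and Csf1r on chromosome 18 (chr18:61100598-61132149).

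All 10 macrophage genes were expressed in every mouse. Per length of transcript, the order of the median FPKM over the 15 mice was Lyz2 (63.8), C1qa (32.8), C1qb (31.8), C1qc (29.3), Csf1r (13.2), Cd68 (7.62), Mrc1 (4.23), Cx3cr1 (3.47), Adgre1 (3.05) and Cd163 (1.02). Lyz2 lay above C1qa in 15 of 15 mice and C1qb above C1qc in 14 of 15. C1qa lay above C1qb in only 10 of 15, a mean log2 ratio of 0.05 ± 0.14 (SD, n = 15), which is within the spread. Mrc1 lay above Cx3cr1 in 12 of 15 mice (0.20 ± 0.29) and Cx3cr1 above Adgre1 in 13 of 15 (0.24 ± 0.27), mean differences that were also within the spread between mice. The ranges over all mice did not overlap between C1qc and Csf1r, Csf1r and Cd68, Cd68 and Mrc1, or Adgre1 and Cd163.

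The genes fell into steady and variable members. The highest mouse exceeded the lowest by 1.47-fold for Cd68, the glycoprotein of late endosomes and lysosomes, by 1.53-fold for Csf1r and by 1.54-fold for Cx3cr1, the receptor for fractalkine. The factor was 1.69 to 2.25 for the C1q chains, 1.77 for Adgre1, the adhesion receptor known as the classical macrophage antigen of the mouse, and 1.79 for Mrc1, the mannose receptor. Lyz2 varied by 3.89-fold and Cd163, the scavenger receptor for haptoglobin-haemoglobin complexes, by 5.64-fold. The counts behind these values ranged from 30 to 169 per mouse for Cd163, from 115 to 225 for Adgre1 and from 130 to 194 for Cd68, and from 201 to 2901 for the other 7 genes.

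**Figure D1:**
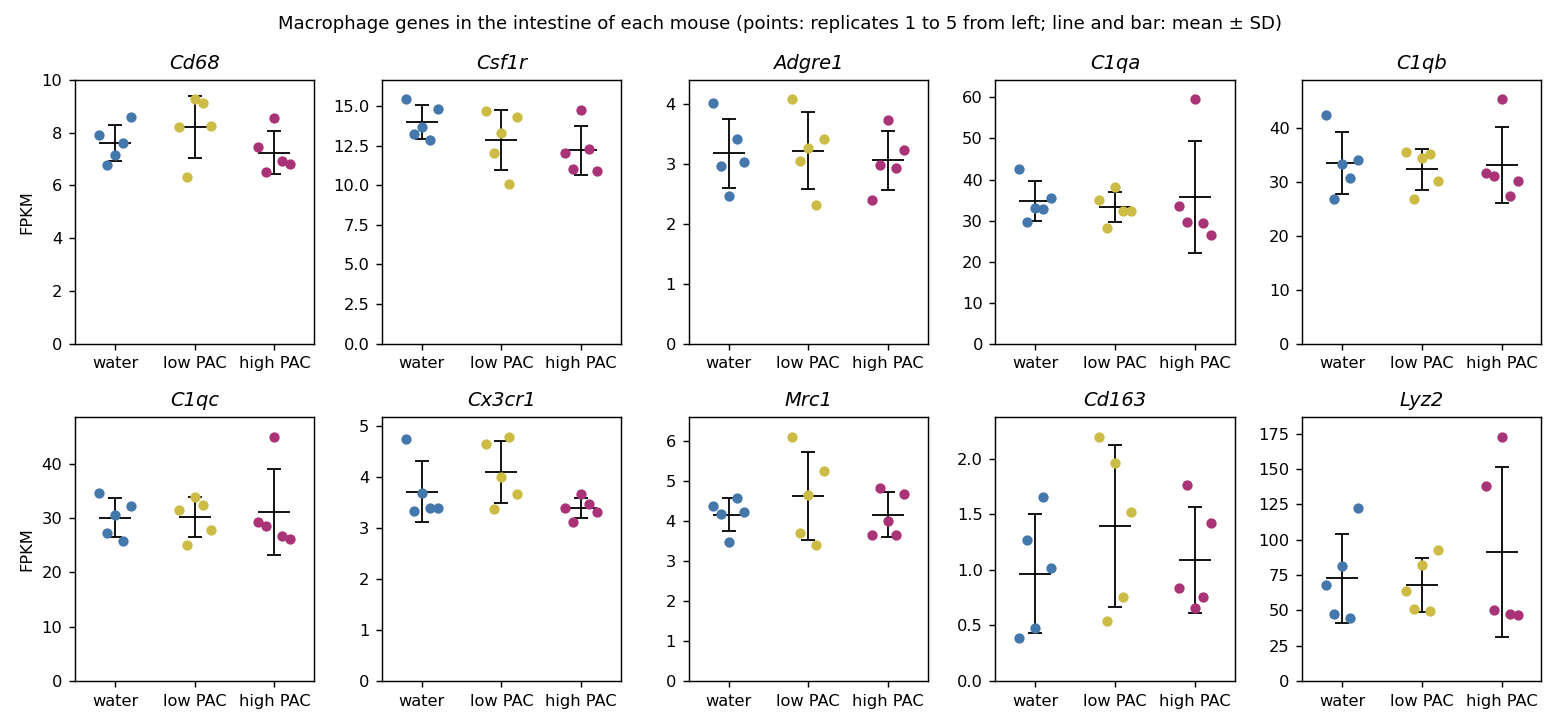
FPKM (vertical axes, starting at 0) of the 10 macrophage genes in the 5 mice of each group, points from left to right being replicates 1 to 5 and the black line and bar the mean and SD. The groups overlap in every panel, high PAC mouse 3 is the highest mouse for C1qa, C1qb, C1qc and Lyz2, and Cd163 and Lyz2 spread widely within each group.

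High PAC was compared with water first. None of the 10 macrophage genes passed an adjusted p under 0.05 in edgeR's quasi-likelihood test over 14386 genes, where 0.0139% of all genes tested (2 genes) did. The log2 fold changes lay between -0.29 and 0.22 with a median of -0.11, against 0.00 over all genes tested, and adjusted p-values were 0.248 to 0.933. The value was below 0 for 8 of the 10 genes, as for 49.5% of all genes tested. With upper-quartile scaling it was below 0 for 6 of the 10 and with limma on FPKM for 7, with C1qc above 0 in both. DESeq2 also called 0 of the 10 (0.779% of all genes) and limma on log2(FPKM + 0.1) 0 of the 10 (0.0673% of all genes). At an unadjusted p under 0.05 edgeR found 1 of the 10, Csf1r, where 14.8% of all genes tested passed, DESeq2 found 1 (14.9% of all genes) and limma 0 (19.9%). The groups overlapped for 10 of the 10 members, where 4.64% of all genes tested had groups without overlap. The exact permutation test gave 0 of the 10 a p under 0.05, against 17.5% of all genes tested. Without high PAC mouse 3, which had the highest sum of FPKM, 9 of the 10 were below 0 (46.1% of all genes), with a median of -0.19, and Csf1r and C1qa passed an unadjusted p under 0.05 (10.9% of all genes).

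Csf1r, the receptor for the growth factors encoded by Csf1 and Il34, was the member nearest to the threshold. Its FPKM was 15.4, 13.2, 13.7, 12.9 and 14.8 in water mice 1 to 5, which gave 14.01 ± 1.09 (SD, n = 5). In high PAC mice 1 to 5 it was 12.06, 11.04, 14.77, 12.3 and 10.9, or 12.2 ± 1.56 (SD, n = 5). Of the high PAC mice, 4 lay below the lowest water mouse and the other, mouse 3, lay within the water range. The log2 fold change was -0.29 ± 0.10 (SE), with a 95% interval of -0.51 to -0.08, and edgeR's adjusted p was 0.248. An exact permutation test, two-sided and on the scale of log2(FPKM + 0.1), gave p = 0.0714, the smallest value possible with 5 against 5 mice being 0.0079. The same test on log2 CPM, scaled by the TMM factors, gave an exact permutation p of 0.0238, Csf1r being 1 of the 10 members under 0.05 on that scale, where 13.6% of all genes tested were. In low PAC mice Csf1r was 14.71, 12.02, 13.27, 10.06 and 14.34 FPKM, 12.9 ± 1.89 (SD, n = 5), with a log2 fold change against water of -0.18 ± 0.10 (SE) and an adjusted p of 0.976 in edgeR.

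Cx3cr1, which marks macrophages that arise from monocytes in the intestine, was at 4.74, 3.34, 3.69, 3.39 and 3.40 FPKM in water mice 1 to 5. It was at 4.64, 3.37, 3.99, 4.79 and 3.67 in low PAC mice and at 3.39, 3.12, 3.67, 3.47 and 3.31 in high PAC mice. The high PAC mice spread little (3.39 ± 0.20, SD, n = 5) and 2 of them lay below the lowest water mouse. Against water the log2 fold change was -0.23 ± 0.12 (SE; 95% interval -0.49 to 0.02; adjusted p = 0.378 in edgeR). Without water mouse 1, the highest of its group, it was -0.11.

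The C1q chains overlapped widely between groups and had log2 fold changes near 0. C1qa was at 42.7, 29.7, 33.1, 32.8 and 35.5 FPKM in water mice 1 to 5, at 35.0, 28.3, 38.1, 32.4 and 32.4 in low PAC mice and at 33.6, 29.5, 59.6, 29.3 and 26.5 in high PAC mice. High PAC mouse 3 was the highest of the 15 mice and water mouse 1 the next, while 3 of the other 4 high PAC mice lay below the lowest water mouse. The mean FPKM was slightly higher with high PAC (35.7 ± 13.6) than with water (34.8 ± 4.88, both SD, n = 5), while the log2 fold change from TMM-scaled counts was -0.07 ± 0.18 (SE; adjusted p = 0.883 in edgeR). Without high PAC mouse 3 it was -0.28, with an unadjusted p of 0.0169 and an adjusted p of 0.377 in edgeR, and without water mouse 1 it was 0.04.

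C1qb was at 42.4, 26.9, 33.4, 30.8 and 34.2 FPKM in water mice, 35.5, 26.8, 34.4, 35.2 and 30.2 in low PAC mice and 31.8, 31.2, 45.4, 27.4 and 30.2 in high PAC mice. C1qc was at 34.7, 27.2, 30.5, 25.8 and 32.3 FPKM in water mice, 31.6, 25.1, 33.9, 32.5 and 27.8 in low PAC mice and 29.3, 28.6, 45.02, 26.7 and 26.1 in high PAC mice. For both, high PAC mouse 3 was the highest of the 15 and all other high PAC mice lay within the water range. The log2 fold changes with high PAC were -0.12 ± 0.14 for C1qb and -0.05 ± 0.14 for C1qc (SE, adjusted p = 0.692 and 0.880 in edgeR). Without high PAC mouse 3 they were -0.21 and -0.18, and without water mouse 1 they were -0.00 and 0.02.

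Of the scavenger and lectin receptors, Mrc1 was at 4.38, 4.18, 3.47, 4.58 and 4.23 FPKM in water mice, at 6.12, 3.71, 4.65, 3.41 and 5.27 in low PAC mice and at 3.66, 4.83, 4.01, 3.65 and 4.69 in high PAC mice. Its mean was 4.17 in both the water and the high PAC group, and low PAC mice spread more widely (4.63 ± 1.11, SD, n = 5). Cd163 was at 0.39, 1.27, 0.48, 1.66 and 1.02 FPKM in water mice, at 2.2, 0.54, 1.96, 0.76 and 1.52 in low PAC mice and at 0.84, 1.76, 0.66, 0.76 and 1.42 in high PAC mice. Every group held mice at both ends of the range. The log2 fold change of Cd163 with high PAC was 0.10 ± 0.43 (SE), with a 95% interval of -0.82 to 1.01, and it was -0.16 without high PAC mouse 2.

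Lyz2 was at 67.6, 47.5, 81.0, 44.5 and 122.1 FPKM in water mice, at 63.8, 50.9, 81.7, 49.8 and 92.9 in low PAC mice and at 137.95, 49.98, 172.93, 47.6 and 46.5 in high PAC mice. In the high PAC group 2 mice lay above every water mouse and the other 3 near the low end of the water range. The log2 fold change with high PAC was 0.22 ± 0.37 (SE; 95% interval -0.56 to 1.01; adjusted p = 0.794 in edgeR), and it was -0.10 without high PAC mouse 3. Cd68 had a mean of 7.60 ± 0.69 FPKM with water and 7.24 ± 0.81 with high PAC, and Adgre1 one of 3.18 ± 0.58 and 3.06 ± 0.49 (SD, n = 5). Their log2 fold changes were -0.17 ± 0.11 and -0.15 ± 0.16 (SE, adjusted p = 0.464 and 0.664 in edgeR).

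Low PAC against water gave no call either. edgeR called 0 of the 10 genes, as it called 0.0% of all genes tested, and 0 of the 10 passed an unadjusted p under 0.05 where 3.61% of all genes did. DESeq2 called 0 of the 10 (0.0139% of all genes) and limma 0 of the 10 (0.0%), and neither had a member under an unadjusted p of 0.05 (3.48% and 4.07% of all genes). The log2 fold changes had a median of -0.05, against -0.01 over all genes tested, and 6 of the 10 were below 0 (54.5% of all genes), against 4 of the 10 with limma on FPKM. The value furthest from 0 was that of Cd163, 0.48 ± 0.43 (SE), with a 95% interval of -0.43 to 1.39. Cd68 was 8.22 ± 1.18 FPKM with low PAC and Adgre1 3.22 ± 0.64 (SD, n = 5), log2 fold changes of 0.06 ± 0.11 and -0.04 ± 0.16 (SE). Adjusted p-values from edgeR were 0.976 to 0.989, and the smallest exact permutation p of the 10 was 0.294, while 4.74% of all genes had one under 0.05. On log2 CPM 0 of the 10 did (4.32% of all genes). No member had groups without overlap (0.605% of all genes).

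The fractions, which differ in the size of the polymers, were also compared with each other at the same dose and time. Over the 10 genes edgeR called 0 (0.0% of all genes tested), as did DESeq2 and limma (0.0% each), and the median log2 fold change of high PAC against low PAC was -0.11, against 0.00 over all genes. It was below 0 for 7 of the 10 genes (48.6% of all genes). Cx3cr1 alone passed an unadjusted p under 0.05 (3.89% of all genes did), and DESeq2 and limma also found 1 each (4.23% and 5.53% of all genes). It was lower with high PAC by a log2 fold change of -0.31 ± 0.12 (SE; 95% interval -0.56 to -0.05), with an adjusted p of 0.896 in edgeR and an exact permutation p of 0.0556. The exact permutation p was 0.0159 on log2 CPM, on which 1 of the 10 was under 0.05 (3.8% of all genes). On log2 FPKM 0 of the 10 members had one under 0.05 (4.5% of all genes), and 0 had groups without overlap (0.737% of all genes). Of the high PAC mice, 2 lay below the lowest low PAC mouse and the highest low PAC mice, at 4.64 and 4.79 FPKM, reached the level of water mouse 1. For Cd68 the log2 fold change was -0.22 ± 0.11 (SE; 95% interval -0.46 to 0.01), and for Mrc1 it was -0.19 ± 0.14 (95% interval -0.49 to 0.11). The intervals of the C1q chains were centred near 0, with -0.32 to 0.44 for C1qa, -0.30 to 0.28 for C1qb and -0.29 to 0.29 for C1qc.

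In each of the 3 comparisons, 8 of the 10 genes had a 95% interval that lay within a change of 1.5-fold either way. The exceptions each time were Cd163 and Lyz2, the variable members. For those, differences of the size of their intervals were not detectable with 5 mice per group.

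**Figure D2:**
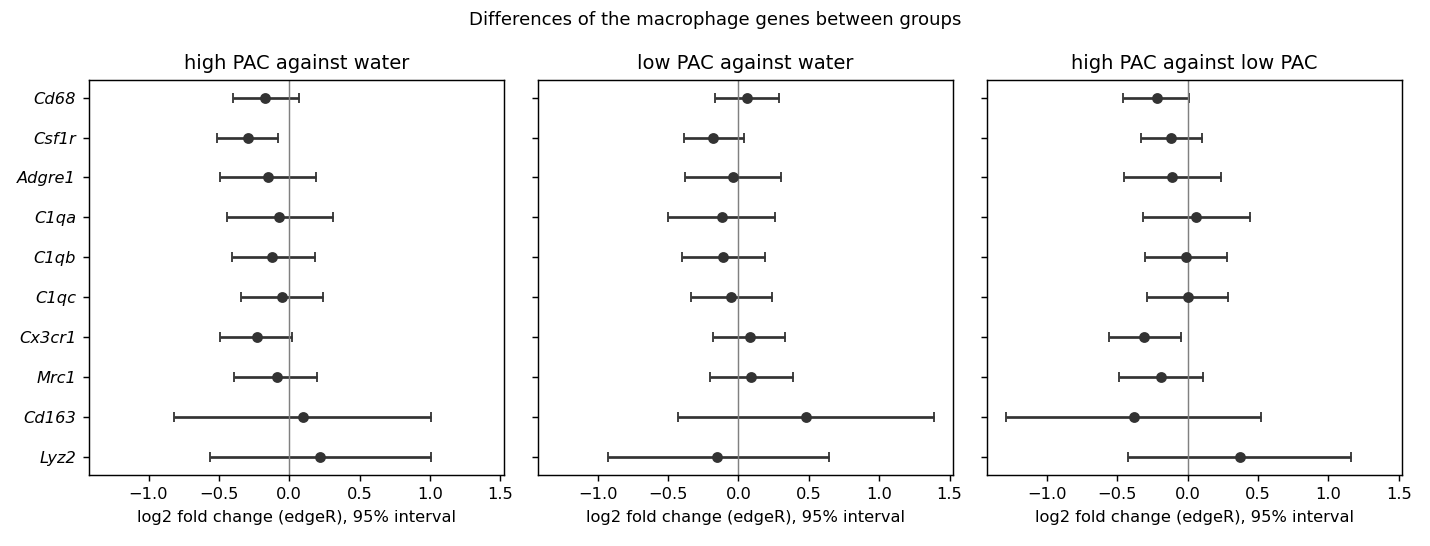
Log2 fold changes of the 10 macrophage genes (horizontal axes) in the 3 comparisons, with points for the edgeR estimate from 5 mice per group and bars for the 95% interval. The intervals of Cd163 and Lyz2 are the widest, and the interval leaves out 0 only for Csf1r in high PAC against water and Cx3cr1 in high PAC against low PAC, neither of which passed the adjusted threshold.

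Between mice of the same group the genes did not vary independently. After subtracting group means from log2(FPKM + 0.1), 18 pairs of genes were tested over the 15 mice by permutation within groups, with Benjamini-Hochberg adjustment over the 18. Of these pairs, 3 held the B cell gene Cd79a, whose levels formed separate clusters, so they are given further on within clusters only. The C1q chains varied together most closely. C1qa had a Pearson r of 0.888 with C1qb (permutation p = 0.00023, adjusted p = 0.00168) and of 0.937 with C1qc (permutation p = 9e-05, adjusted p = 0.00162). Spearman's rho was 0.911 and 0.925 (permutation p = 3e-05 each, adjusted p = 0.00027). Leaving out high PAC mouse 3 and water mouse 1, the mice farthest from the median of C1qa, left r at 0.731 and 0.795. The ratio of C1qa to C1qb was 0.879 to 1.31 in the 15 mice with a median of 1.05, that of C1qa to C1qc 0.998 to 1.32 and that of C1qb to C1qc 0.987 to 1.22. The highest ratios of C1qa to either partner, 1.31 and 1.32, were those of high PAC mouse 3.

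**Figure D3:**
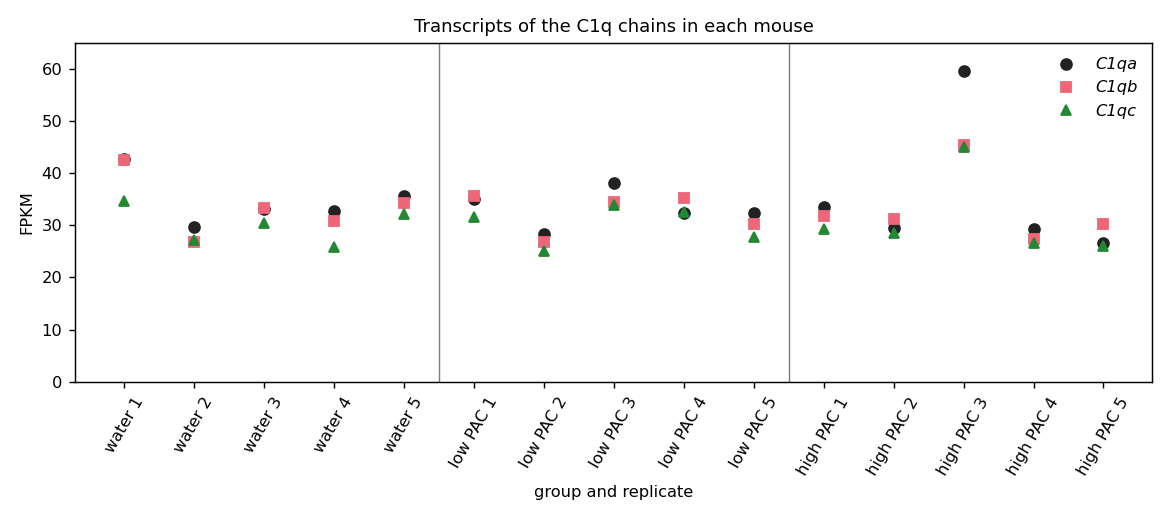
FPKM (vertical axis, from 0) of C1qa, C1qb and C1qc in each of the 15 mice, with grey lines between the groups. The chains rise and fall together from mouse to mouse, and high PAC mouse 3 is the highest for each, at 59.6, 45.42 and 45.02 FPKM.

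Other members followed C1qa less closely. Cd68 had r = 0.713 with C1qa (permutation p = 0.00138, adjusted p = 0.00621, rho = 0.871, permutation p = 0.00049), and 0.784 without those 2 mice. Csf1r had r = 0.676 (permutation p = 0.00811, adjusted p = 0.0153, rho = 0.70, permutation p = 0.00923), but 0.442 without the 2 mice, so much of the relation rested on them. Cx3cr1 had r = 0.503 (permutation p = 0.00848, adjusted p = 0.0153, rho = 0.579, permutation p = 0.0226) and 0.393 without them, and Adgre1 had r = 0.441 (permutation p = 0.103, adjusted p = 0.124, rho = 0.40, permutation p = 0.149) and -0.041 without them. Within groups r of C1qa and Csf1r was 0.873 for water, 0.369 for low PAC and 0.940 for high PAC, with 5 mice each.

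Mrc1 and Cd163 did not follow the C1q chains. C1qa had r = 0.041 with Mrc1 (permutation p = 0.889, rho = 0.11, permutation p = 0.715) and r = -0.241 with Cd163 (permutation p = 0.365, rho = -0.061, permutation p = 0.833). The latter was 0.284 without high PAC mouse 3 and water mouse 1, and it was -0.673 within water, 0.857 within low PAC and -0.645 within high PAC mice. Mrc1 and Cd163 instead varied with each other, at r = 0.749 (permutation p = 0.0041, adjusted p = 0.0148, rho = 0.739, permutation p = 0.0051), and at 0.869 without water mouse 1 and low PAC mouse 1. Their ratio still ranged widely, Cd163 being at 8.9% to 42.2% of Mrc1. Adgre1 had r = 0.745 with Mrc1 and 0.68 with Csf1r, values that are given as a description, since these pairs were not among the 18.

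**Figure D4:**
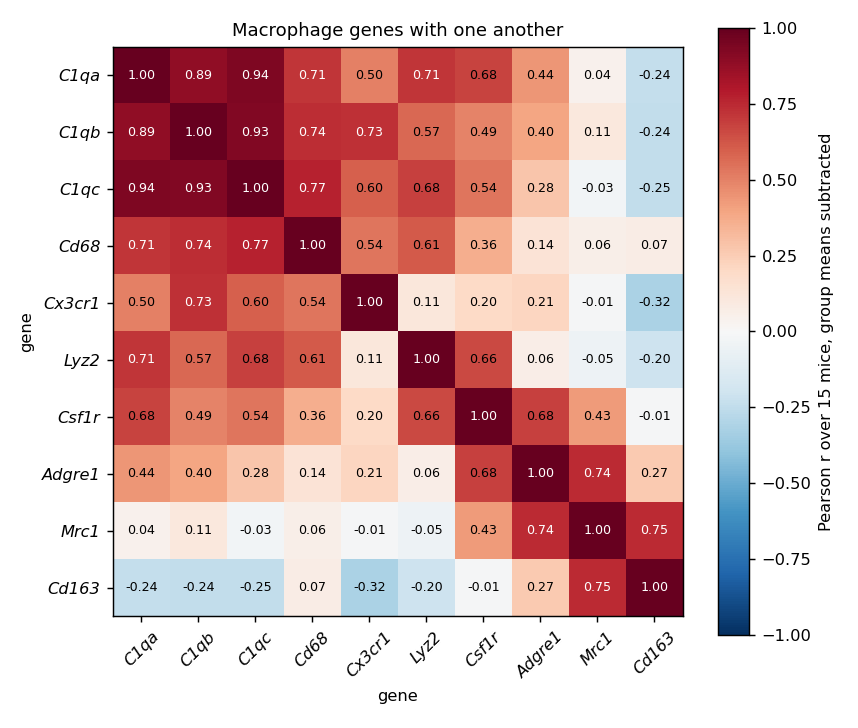
Pearson r between each pair of macrophage genes over 15 mice, from log2(FPKM + 0.1) with group means subtracted, on a colour scale from -1 to 1. The C1q chains form a block of 0.89 to 0.94, while Cd163 is paired with Mrc1 (0.75) and has values of -0.24 to -0.25 with the C1q chains.

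Cd163 was compared with markers of the muscle and outer layers of the tissue pieces. With Myh11, the myosin heavy chain of smooth muscle, it had r = 0.73 (permutation p = 0.00756, adjusted p = 0.0153, rho = 0.711, permutation p = 0.00683), and r was 0.534 without water mice 1 and 3. With Msln, a marker of the mesothelium that covers the gut, it had r = 0.712 (permutation p = 0.0106, adjusted p = 0.0173, rho = 0.593, permutation p = 0.0433, adjusted p = 0.0649, which did not pass), and r was 0.484 without the same mice. On log2 CPM its rho was 0.618 (permutation p = 0.033, adjusted p = 0.0495), which passed. These were the mice with the least Cd163, 0.39 and 0.48 FPKM, the lowest summed smooth muscle FPKM, 311.6 and 270.4, and a summed FPKM of 4 mesothelial genes of 0.09 and 0.18. The next lowest Cd163 values came with more muscle, however, with low PAC mouse 2 at 0.54 FPKM and sums of 873.8 for smooth muscle and 8.49 for mesothelium, and high PAC mouse 3 at 0.66 FPKM and sums of 693.3 and 2.73. The part of tissue composition in the level of Cd163 was not tested. Mrc1 had r = 0.405 with Myh11 (permutation p = 0.0755, adjusted p = 0.0971, rho = 0.371, permutation p = 0.104), and C1qa had r = -0.466 (permutation p = 0.0501, adjusted p = 0.0694, rho = -0.293, permutation p = 0.281). On log2 CPM the relation of C1qa was r = -0.541 (permutation p = 0.0353, adjusted p = 0.0489), with a rho of -0.461 (permutation p = 0.0997).

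Lyz2 was compared with the B cell genes. The 7 mice with the most Lyz2, 67.6 to 172.9 FPKM, were the same 7 that held the higher B cell sums, and Lyz2 was 44.5 to 63.8 FPKM in the other 8. Of the 7 mice with the most C1qa, 6 were among them, of those with the most Cd68, 5, and of those with the most Cd163, 2. Because the B cell levels formed separate clusters, no relation with Cd79a is given over all 15 mice. Within the 7 mice, Cd79a, a chain of the B cell receptor complex, had r = 0.823 with Lyz2 (exact permutation p = 0.0333, adjusted over 6 relations 0.20, rho = 0.643, exact permutation p = 0.139), and r was 0.909 without the 2 mice farthest from the median. Within the other 8 mice r was 0.059 (exact permutation p = 0.85). C1qa had r of 0.301 and 0.372 with Cd79a within the clusters (exact permutation p = 0.562 and 0.382), or 0.124 and 0.751 without the 2 mice farthest from the median, and Cd68 had -0.322 and 0.618 (exact permutation p = 0.462 and 0.102), the former being 0.078 without those 2 mice. For Cd68 in the 8 mice, rho was 0.833 (exact permutation p = 0.0154, adjusted p = 0.0924) and r was 0.847 without the 2 mice farthest from the median. None of the 6 relations passed the adjusted threshold by r or rho. Group means were not subtracted for these 6, and permutation ran over all mice of a cluster. Both clusters held mice of every group, and the part of the B cell content in the level of Lyz2 was not tested.

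**Figure D5:**
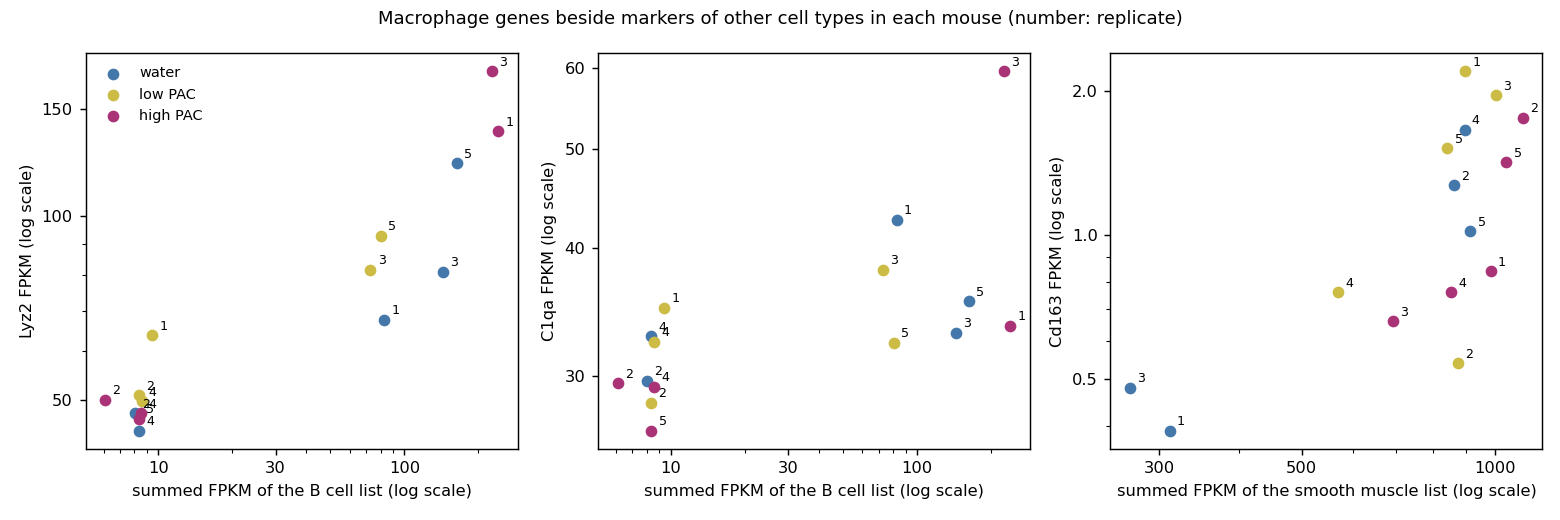
Lyz2 and C1qa against the summed FPKM of the B cell list, and Cd163 against the summed FPKM of the smooth muscle list, on log axes, with 1 point per mouse and the replicate number beside it. The 7 mice to the right in the B cell panels have Lyz2 of 67.6 to 172.9 FPKM, and water mice 1 and 3 lie at the lower left of the Cd163 panel.

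The genes most like these members across the 15 mice were ranked over the 12419 genes whose FPKM averaged 1 or more, as a description with no test, since all values of a mouse share 1 library. Most like Lyz2 were Pip4k2a (r = 0.989), Sema4d (0.986), Grap (0.983), Msn, Il16, Plek, Cnn2, Ets1, Tmem123 and Pou2af1, the last a coactivator of B cell transcription (0.976). These r with Lyz2 were taken across both B cell clusters. Most like Cd163 were Klf9 (0.933), Tgfbr3 (0.932), Scn7a (0.926), Cryab (0.921), Dlc1, Cavin2, Olfm1, Nkain4, Plxdc2 and Slc43a1 (0.916). Most like C1qa were Adh5 (0.931), Nip7 (0.929), Eif4a3, Brk1, Ubash3b, Rps16, Iscu, Sin3b, Rps20 and Rps28 (0.896), 3 of which encode ribosomal proteins. All 10 of those were highest in high PAC mouse 3, and without that mouse only 1 of the 10, Iscu, stayed among the 10 most alike, which Slc16a11 (r = 0.884) and Riok1 (0.857) then led.

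Further genes of macrophage biology were read from lists, none of which had a gene called in any of the 3 comparisons by edgeR. Markers of other cell types were read beside them in high PAC against water. Of 8 enterocyte genes, 7 were below 0 (median log2 fold change -0.37) and 5 passed an unadjusted p under 0.05 (14.8% of all genes tested), while edgeR called 0 and DESeq2 called 1, Krt20 (0.779% of all genes). Without high PAC mouse 3 the median was -0.19 and 4 passed (10.9% of all genes). For this and the lists that follow, leaving out that mouse was chosen after seeing the data. Of 8 smooth muscle genes, 8 were above 0 (median 0.42) and 0 passed an unadjusted p under 0.05. Their part in the values that follow was not tested. Of 24 other macrophage genes, 23 were tested and Trem2, at 0 to 0.61 FPKM, was too low. With high PAC 16 of the 23 were below 0 (median -0.12), and 1 passed an unadjusted p under 0.05 (14.8% of all genes). Without high PAC mouse 3, 21 of the 23 were below 0 (median -0.18) and 3 passed (10.9% of all genes). The gene that passed with all mice was Mertk, a receptor for the uptake of dying cells. It was at 29.4 ± 1.54 FPKM with water and 24.0 ± 6.94 with high PAC (SD, n = 5). The log2 fold change was -0.39 (unadjusted p = 0.0211, adjusted p = 0.273 in edgeR). The lowest mouse for Mertk, at 13.66 FPKM, was a high PAC mouse. The most abundant of the list, Apoe (155 to 305 FPKM) and Ctss, a lysosomal protease (103 to 172 FPKM), had log2 fold changes of -0.04 and -0.19. With low PAC 18 of the 23 were below 0 (54.5% of all genes, median -0.12), and 0 passed an unadjusted p under 0.05 (3.61% of all genes). High PAC against low PAC had a median of 0.04 for this list.

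Of 11 genes of growth factors, receptors and transcription factors of macrophages, 10 were tested. All 10 had a log2 fold change below 0 with high PAC (median -0.32), or 9 of 10 with upper-quartile scaling or limma on FPKM. None passed the adjusted threshold, and 5 of 10 passed an unadjusted p under 0.05 in edgeR (14.8% of all genes tested) and 1 of 10 in limma on FPKM (19.9%). The summed FPKM of the list was 265.33 in high PAC mouse 3 and 320.01 to 354.8 in the other 4 high PAC mice. Maf alone, at a mean of 209 FPKM with high PAC, made up most of that sum. High PAC mouse 3 also lay farthest from its group, with a chi-square per gene of 72.67 to 95.73 against each of the other high PAC mice. All other pairs of mice within a group had 14.01 to 46.28. Without high PAC mouse 3 all 10 log2 fold changes were still below 0 (median -0.25), and 3 passed an unadjusted p under 0.05 (10.9% of all genes). With low PAC and all mice, 10 of 10 were also below 0 (54.5% of all genes, median -0.18), and 1 passed (3.61% of all genes). High PAC against low PAC had a median of -0.12 for this list. Maf, a transcription factor that macrophages share with other cells, had means of 247 and 209 FPKM with water and high PAC (log2 fold change -0.34, unadjusted p = 0.0205), Csf2ra, a chain of the receptor for granulocyte-macrophage growth factor, 13.9 and 11.6 (-0.36, unadjusted p = 0.024), and Il34, a ligand of Csf1r, 3.12 and 2.54 (-0.39, unadjusted p = 0.0317). The adjusted p-values of these genes in edgeR were 0.272 to 0.299. Csf1, the other ligand, had means of 4.75 and 4.5 FPKM and a log2 fold change of -0.22 (unadjusted p = 0.0737), and Cx3cl1, which encodes fractalkine, had means of 40.8 and 35.4 FPKM (-0.30, unadjusted p = 0.0417, adjusted p = 0.319 in edgeR). The SD of Cx3cl1 was 3.14 with water and 8.05 with high PAC, and its lowest mouse, a high PAC mouse, was at 24.93 FPKM. Maf, Csf2ra and Cx3cl1 are also expressed by other cells, so their levels in whole tissue are not those of macrophages alone. Spi1, the gene of PU.1, had means of 5.35 FPKM with water and 5.22 with high PAC (log2 fold change -0.14, unadjusted p = 0.648).

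Of 15 genes of resident and perivascular macrophages, 11 were tested. Of these, 7 had a log2 fold change above 0 with high PAC (median 0.19) and 8 with low PAC (median 0.09). With high PAC 2 were higher and 2 lower at an unadjusted p under 0.05 (14.8% of all genes tested in either direction), with a lowest adjusted p of 0.185. Lyve1, which lymphatic vessels also express, had means of 12.8 and 15.7 FPKM (log2 fold change 0.20, unadjusted p = 0.0224) and Gas6, a ligand of Mertk and Axl, 44.7 and 54.0 (0.18, unadjusted p = 0.035). Stab1, a scavenger receptor, had means of 5.48 and 4.37 FPKM (log2 fold change -0.42, unadjusted p = 0.00196) and Bmp2, by which muscularis macrophages signal to enteric neurons, 16.7 and 13.6 (-0.40, unadjusted p = 0.00563). Vsig4 was at most 0.05 FPKM and Cd209g at most 0.11.

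All 12 partners and receptors of C1q were tested, with a median log2 fold change of -0.11 with high PAC. Of these, 11 were below 0 in edgeR, but 9 of 12 without high PAC mouse 3 and 6 of 12 with limma on FPKM. With low PAC 9 of 12 were below 0 in edgeR (54.5% of all genes, median -0.09). The values that follow are those of high PAC against water. C1ra and C1s1, the proteases that C1q activates, had log2 fold changes of -0.05 and -0.09, and Serping1, their inhibitor, -0.01. Cfb, of the alternative pathway, had means of 70.2 and 66.0 FPKM (-0.19, unadjusted p = 0.00723, adjusted p = 0.227 in edgeR) and Cd93, 3.56 and 3.15 (-0.28, unadjusted p = 0.0233, adjusted p = 0.278 in edgeR).

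Of 18 cytokines and activation genes, only 10 were high enough to test. Il6 was at most 0.11 FPKM in any mouse, Il10 at most 0.24, Il12b at most 0.33 and Cxcl2 at most 0.12. Il1b had means of 1.44 FPKM with water and 1.55 with high PAC (log2 fold change -0.00) and Tnf of 1.31 and 1.45 (0.05). Nos2, the inducible nitric oxide synthase, which the epithelium also makes, was the 1 gene of the list under an unadjusted p of 0.05, with means of 58.3 FPKM with water, 34.0 with low PAC and 25.5 with high PAC (log2 fold change -1.28 with high PAC, unadjusted p = 0.0326, adjusted p = 0.30 in edgeR). Over all genes 14.8% passed. The p of Nos2 was 0.0532 with the robust option of edgeR and 0.059 to 0.0828 without water mouse 3 or 4 or high PAC mouse 2, 3 or 5. Of the 10 genes, 7 were below 0 with high PAC (median -0.12), and 9 without high PAC mouse 3 (median -0.24). With low PAC 7 of the 10 were below 0 (54.5% of all genes, median -0.38).

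Markers of neighbouring cells of the same lineage were read beside these. The 5 monocyte genes had a median log2 fold change of -0.04 with high PAC and none passed an unadjusted p under 0.05, and without high PAC mouse 3 all 5 were below 0 (median -0.16) with none past it. Ly6c2 had means of 4.2 FPKM with water and 4.81 with high PAC, and Ccr2 1.36 and 1.44. Of 9 dendritic cell genes 8 were below 0 with high PAC (49.5% of all genes, and 9 of 9 with limma on FPKM), and 4 passed an unadjusted p under 0.05 (14.8% of all genes) with adjusted p-values of 0.185 to 0.314 in edgeR. These were Itgae (4.81 and 3.53 FPKM with water and high PAC), Itgax, the integrin chain that macrophages share (7.57 and 5.87), Clec9a (1.65 and 1.28) and Batf3 (1.24 and 0.878). With low PAC 9 of 9 were below 0 (54.5% of all genes, median -0.47), and 2 passed an unadjusted p under 0.05 (3.61% of all genes). High PAC against low PAC had a median of 0.03 for this list.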

How the data were processed

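RNA of the ileum of 15 mice was sequenced as paired reads of 100 bases. The authors cleaned the reads with SOAPnuke and mapped them to mm10, with Bowtie2 per the study's methods and HISAT per the submitters' processing notes. They deposited per gene an expected count, an estimate of read pairs that is not normalized, and its FPKM, scaled by gene length and mapped fragments, with 0.01 as the lowest value. The deposited length column was used only to describe genes. A gene missing from a file was set to 0. The total was 15963086 to 17903886 counts per mouse, of which 88.6% to 89.5% of values were whole within 0.005.

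Expected counts were rounded and fitted with edgeR 4.0.16 (R 4.3.3; TMM, filterByExpr with the 3 groups, quasi-likelihood test), in 1 model of all 15 mice, with Benjamini-Hochberg adjustment over 14386 genes and 0.05 as threshold. NOIseq, which the study used, was not run. Single genes were also compared by two-sided exact permutation of log2(FPKM + 0.1) over 252 splits, and relations by 100000 permutations within groups. Alternatives were DESeq2 1.42.0, limma 3.58.1 on FPKM (mean of at least 0.5), other scalings, filters and pseudocounts, a replicate block and each mouse left out. The edgeR script was tested on simulated data first. Promoter sequences were from RefSeq (GRCm38.p6) and matched 7 of 10 members, and coordinates were from GENCODE (GRCm38, the same build as mm10). All 10 members were named. From other lists, counts, defining genes and up to 4 genes with the smallest unadjusted p in high PAC against water were named, and most alike genes were the 10 with the largest r. Some genes of these lists are counted but not reported here. Members and lists were chosen with earlier results of these data known.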

Additional observations from a re-analysis of the deposited data

Results flagged for a closer look

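Of 30 sets of 5 mice (10 genes in 3 groups), 4 held a mouse whose distance to its nearest neighbour was more than 0.71 of the range of the 5, and chance gives about 1 set in 20. High PAC mouse 3 stood above the rest of its group for C1qa, at 59.56 FPKM against 26.53 to 33.59 in the other mice. It also did so for C1qb, at 45.42 against 27.38 to 31.75, and for C1qc, at 45.02 against 26.12 to 29.31. These 3 flags fall on genes of 1 cluster that vary together and on the library with the highest sum of FPKM. Cx3cr1 stood at 4.74 FPKM in water mouse 1, against 3.34 to 3.69 in the other water mice. The causes were not tested.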

How the results depend on the processing

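None of the 10 genes was called in any of the 3 comparisons by any of the 26 fits, 15 of which left out 1 mouse each. The median log2 fold change was -0.19 to -0.05 with 1 mouse left out for high PAC against water, -0.09 to 0.04 for low PAC against water and -0.19 to -0.05 for high PAC against low PAC, and -0.11 to -0.02, -0.05 to 0.01 and -0.11 to -0.06 under the other alternatives. The exact permutation test on log2 CPM gave 1 gene under 0.05 in high PAC against water (Csf1r, 13.6% of all genes) and 1 in high PAC against low PAC (Cx3cr1, 3.8% of all genes), where log2 FPKM gave 0 (17.5% and 4.5%). In 16 fits of single genes, none of them called, the sign turned. With upper-quartile scaling, C1qa (0.01) and C1qc (0.02) turned in high PAC against water and C1qb (0.02) in high PAC against low PAC. With limma on FPKM, C1qc (0.03 in high PAC against water, 0.00 in low PAC against water), Adgre1 (0.02, or 0.01 with a pseudocount of 1, in low PAC against water) and C1qb (0.02 in high PAC against low PAC) turned. With the replicate block C1qc was -0.01 in high PAC against low PAC. The causes were not tested.

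With 1 mouse left out, signs turned for C1qa (-0.28 to 0.04), C1qc (-0.18 to 0.02), Cd163 (-0.16 to 0.39) and Lyz2 (-0.10 to 0.46) in high PAC against water, for Adgre1 (-0.13 to 0.07), C1qb (-0.18 to 0.01), C1qc (-0.10 to 0.02), Mrc1 (-0.02 to 0.19) and Lyz2 (-0.28 to 0.09) in low PAC against water, and for C1qa (-0.19 to 0.15), C1qb (-0.13 to 0.04) and C1qc (-0.15 to 0.06) in high PAC against low PAC. Replicate numbers did not pair the mice (5 of 15 same-number pairs had r over 0.1, range -0.307 to 0.445, and 2 of 15 mice matched best with their own number), and with the replicate block 0 of the 10 genes were called, with medians of -0.11, -0.05 and -0.10. High PAC against water had 2 genes called over all genes with edgeR, 112 with DESeq2 and 9 with limma. Counts limit Cd163 most, at 30 to 169 per mouse.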

Other observations

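Without high PAC mouse 3, a setting chosen after seeing the data, the pairs of C1q chains had r of 0.836 to 0.875 over 14 mice, Mrc1 and Cd163 had 0.759, and Mrc1 and Adgre1 had 0.828. Lyz2 and C1qa had r = 0.547 then and 0.713 with all 15 mice.

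Lists of other cell types described the tissue pieces. The 7 Paneth cell genes, led by lysozyme and defensins, had summed FPKM of 15900 to 45590, and the 8 enterocyte genes 8794 to 14510. The 6 neutrophil genes had only 4.33 to 11.35, the 5 eosinophil genes 1.86 to 4.96 and the 7 mast cell genes 0.60 to 14.54. Of the eosinophil list 3 were tested, all with a log2 fold change below 0 with high PAC, and 1, Ccr3, passed an unadjusted p under 0.05 (log2 fold change -1.22, unadjusted p = 0.00313, adjusted p = 0.193 in edgeR), with means of 0.474 FPKM with water and 0.216 with high PAC. Of the mast cell list only Mcpt1 and Mcpt2 were high enough to test, with log2 fold changes of -1.96 and -2.76 with high PAC, both at an unadjusted p under 0.05 and neither past the adjusted threshold (lowest adjusted p = 0.217 in edgeR). Over all genes tested 14.8% passed the unadjusted threshold. The mast cell sum was 14.54 in water mouse 4, 1.09 to 2.97 in the other water mice and 0.60 to 3.17 with high PAC. Mcpt1 was at 2.49 ± 3.24 FPKM with water and 0.684 ± 0.615 with high PAC. Mcpt2 was at 1.60 ± 2.24 and 0.244 ± 0.197 (SD, n = 5). Among members too low to test, the mean was lower with high PAC for Mcpt4 but not for Cpa3, Tpsb2, Cma1 or Ms4a2.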
